A study of Mus musculus with 47 samples.

Results

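The first component of the classical complement pathway is described here through 6 genes, C1qa, C1qb, C1qc, C1ra, C1s1 and C1qbp, chosen by their symbols from the 20456 genes of a mouse RNA-seq count table with 47 libraries. C1qa, C1qb and C1qc encode the chains of C1q. C1ra and C1s1 encode the serine proteases C1r and C1s. C1qbp was included for its name, the C1q binding protein. All 6 genes passed the filter on low counts, which left 16892 genes in the tests.

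C1q is the recognition subunit of the C1 complex, and binds to antibody on a surface, to apoptotic cells and, in the developing brain, to synapses. Once C1q has bound, C1r is activated and cleaves C1s, which in turn cleaves C4 and C2 so that a C3 convertase forms. The parts of this complex come from different cells. The chains of C1q are made mainly by tissue macrophages, among them the Kupffer cells of the liver and the microglia of the brain, whereas C1r and C1s are made by hepatocytes and by mesenchymal cells. C1qbp is found mostly in the mitochondrial matrix, where it has a role in mitochondrial translation.

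The libraries were bulk RNA-seq of liver, lung and brain from C57BL/6 embryos at E18.5, either homozygous for a Daxx knock-in allele or wild-type littermates. Daxx is a chaperone of the histone variant H3.3. Daxx S226A/S226A carries a substitution that abolishes the binding of Daxx to H3.3, and Daxx Y130A/Y130A carries one that abolishes its binding to Atrx. Each of the 12 groups of tissue and genotype held 4 embryos, except the wild-type lung of the Y130A litters with 3, because the study removed 1 such lung. Both alleles were made with CRISPR/Cas9 in C57BL/6N zygotes, carried silent changes next to the substitution and were backcrossed to C57BL/6J, and they were germline alleles present in every cell. The counts per gene do not show the substituted codon, so the genotype labels could not be checked from them.

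The libraries of the S226A litters held 15722147 to 26190403 counts and those of the Y130A litters 36351738 to 54885020. The markers of each labelled tissue were high in it. The summed level of 6 hepatocyte genes was 150000 to 228600 CPM (counts scaled to the library total after edgeR's TMM adjustment) in liver and at most 1320 CPM in any lung or brain library. Markers of lung epithelium summed to at least 5399 CPM in lung and at most 18.4 CPM elsewhere, and those of neurons to at least 4891 CPM in brain and at most 41.0 CPM elsewhere. In bulk tissue, fewer cells of a type and less RNA per cell cannot be told apart, which holds for every level given here.

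The 3 genes for the C1q chains lie next to each other on chromosome 4 of GRCm38, all on the minus strand, in the order C1qb (chr4:136880129-136886187), C1qc (chr4:136889804-136893065) and C1qa (chr4:136895917-136898803). Each has 3 exons, of which 2 are coding. C1ra (chr6:124512405-124523443, plus strand, 11 exons) and C1s1 (chr6:124530345-124542359, minus strand, 12 exons) are neighbors on chromosome 6, and C1qbp (chr11:70977836-70983026, minus strand, 6 exons in its coding transcript) lies on chromosome 11. What sets the chains apart from the proteases at the sequence level is their collagen-like stretch, in which glycine, encoded by GGN, opens each successive triplet of amino acids. The longest uninterrupted stretch of this kind had 16 triplets in C1qa, 29 in C1qb and 16 in C1qc, against 2 in C1ra, 2 in C1s1 and 1 in C1qbp. These stretches, read from the coding strand of the GRCm38 genome with the GGN codons in capitals, lie within exon 3 of C1qa (chr4:136896565-136896708) and of C1qc (chr4:136890439-136890582), and across exons 2 (chr4:136882127-136882217) and 3 (chr4:136880700-136880869) of C1qb. They are shown because no word of 50 bases in the transcripts of the chains occurred in another gene, so reads of the chains could be assigned to 1 gene in spite of the shared repeat.
C1qa: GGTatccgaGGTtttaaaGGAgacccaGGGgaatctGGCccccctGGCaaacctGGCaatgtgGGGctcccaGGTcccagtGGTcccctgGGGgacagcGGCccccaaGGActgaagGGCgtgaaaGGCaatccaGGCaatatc
C1qb: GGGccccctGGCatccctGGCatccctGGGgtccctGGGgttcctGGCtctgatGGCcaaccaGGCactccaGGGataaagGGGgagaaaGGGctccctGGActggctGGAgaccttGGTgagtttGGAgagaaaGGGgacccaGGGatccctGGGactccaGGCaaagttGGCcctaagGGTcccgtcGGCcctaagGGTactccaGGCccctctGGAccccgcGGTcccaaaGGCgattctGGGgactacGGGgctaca
C1qc: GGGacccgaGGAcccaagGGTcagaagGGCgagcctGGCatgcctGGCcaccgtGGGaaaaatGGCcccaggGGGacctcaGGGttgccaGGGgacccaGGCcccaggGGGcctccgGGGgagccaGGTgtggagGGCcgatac

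The proteases are different in this respect. In C1ra, 48.0% of the words of 50 bases also occurred in its duplicate C1rb, and in C1s1, 24.3% also occurred in C1s2, so their counts depend on how shared reads were handled. C1rb held 0 to 3 reads and C1s2 at most 28 reads in any library. C1qbp lies 0.003 kb from Rpain on the opposite strand, and the strand setting of the counting was not given in the sources used here.

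The promoters of C1qb and C1qc are shown because the levels of these chains moved together in the mutant. The 250 bases before the RefSeq start, on the minus strand of GRCm38.p6, were searched on both strands for 7 motifs known from macrophages or hepatocytes. The core of the PU.1 motif, GAGGAA, is in capitals. It was found 30 to 25 bases before the start of C1qb (chr4:136886201-136886450) and, as its reverse complement, 193 to 188 bases before the RefSeq start of C1qc (chr4:136892915-136893164). The RefSeq and GENCODE starts differ for some of these genes. That of C1qb lies 13 bases upstream of the GENCODE gene, but that of C1qc lies 151 bases inside it and that of C1ra 216 bases inside it, so these windows hold transcribed sequence by GENCODE. For C1qc, only the 99 bases outside the GENCODE gene are printed (chr4:136893066-136893164), which hold the match.
C1qb: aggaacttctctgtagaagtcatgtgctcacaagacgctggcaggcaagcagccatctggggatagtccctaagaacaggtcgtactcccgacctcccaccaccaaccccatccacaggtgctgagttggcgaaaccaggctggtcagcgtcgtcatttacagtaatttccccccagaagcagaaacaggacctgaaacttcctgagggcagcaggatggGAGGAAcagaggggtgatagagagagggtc
C1qc: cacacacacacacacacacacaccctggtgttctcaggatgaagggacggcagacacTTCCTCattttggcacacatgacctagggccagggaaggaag

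The PU.1 core was present in 23.3% of all 32851 promoters of the RefSeq table, so a match in a given promoter is common. The C/EBP motif, TTGCNNAA, was found 242 bases before the start of C1s1 and in 9.56% of promoters, and the AP-1 motif, TGANTCA, 106 bases before the start of C1qbp and in 6.75%. No member had more than 1 match. The window of C1ra, of which 34 bases lie outside the GENCODE gene, held none of the motifs, which included HNF4 (CAAAGTCCA, in 0.384% of promoters), a Maf motif (TGCTGAC, in 3.81%), the HNF1 motif (in 0.00913%) and an interferon-regulatory motif (in 2.98%). These matches describe the letters of the windows and are not evidence of binding. C1qa was named only, since the table held 5 of the 6 genes.

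In wild-type embryos, the C1q chains were made in all 3 tissues, whereas the proteases were close to absent from brain. Levels between genes are given as RPKM, which are CPM divided by the exon length in kilobases, over 8 liver, 7 lung and 8 brain libraries of both sets of litters. In liver, the level of C1s1 was 121 ± 9.87 RPKM (SD, n = 8), that of C1qa 109 ± 27.0, that of C1qb 86.7 ± 11.8, that of C1qc 46.7 ± 7.36, that of C1ra 31.7 ± 5.09 and that of C1qbp 26.9 ± 2.51. C1s1 and C1qa overlapped (109 to 136 against 74.8 to 150 RPKM), as did C1qa and C1qb, and C1ra and C1qbp, whereas the lowest C1qb library (72.5 RPKM) lay above the highest C1qc library (59.6 RPKM). The order of C1s1 and C1qa turned with the set of litters. In wild-type liver of the S226A litters, C1s1 (113 RPKM) lay above C1qa (85.7 RPKM) without overlap, whereas in that of the Y130A litters C1qa (133 RPKM) and C1s1 (128 RPKM) overlapped. The separation of C1qb from C1qc depended on the length used. With the longest coding transcript in place of all exons, a setting chosen after seeing the data, the liver level of C1qc was 75.0 RPKM (60.4 to 95.7), which overlapped with C1qb (72.5 to 106 RPKM), and that of C1qbp was 64.6 RPKM.

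In lung, with all exons as the length, C1qa led with 15.7 ± 4.28 RPKM (SD, n = 7), followed by C1qb with 12.5 ± 1.87, C1s1 with 7.95 ± 1.57, C1qbp with 7.48 ± 0.941, C1ra with 5.73 ± 1.24 and C1qc with 5.69 ± 0.930. Each gene overlapped with the next in this order, but within the Y130A litters C1qa (19.5 RPKM) lay above C1qb (12.8 RPKM) without overlap. In brain, C1qbp (14.7 ± 1.37 RPKM, SD, n = 8) and C1qa (14.2 ± 4.91 RPKM) led, followed by C1qb (11.1 ± 2.59 RPKM) and C1qc (5.69 ± 1.21 RPKM). C1qbp, C1qa and C1qb overlapped over all libraries. In the S226A litters, C1qbp (13.8 RPKM) lay above C1qa (10.1 RPKM) without overlap, and in the Y130A litters C1qa (18.3 RPKM) and C1qbp (15.6 RPKM) overlapped in the opposite order. The highest C1qc library (7.29 RPKM) lay below the lowest of C1qb (8.13 RPKM). These orders also depended on the length. With the longest coding transcript, C1qbp led in lung (18.0 RPKM) and brain (35.4 RPKM), C1qc in lung (9.13 RPKM) lay above C1s1 (8.44 RPKM) and C1ra (5.73 RPKM), and C1qc in brain (7.32 to 11.7 RPKM) overlapped with C1qb. C1s1 (0.286 ± 0.103 RPKM) and C1ra (0.118 ± 0.0604 RPKM) were near the floor, with 15 to 93 and 4 to 23 reads per library.

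**Figure D1:**
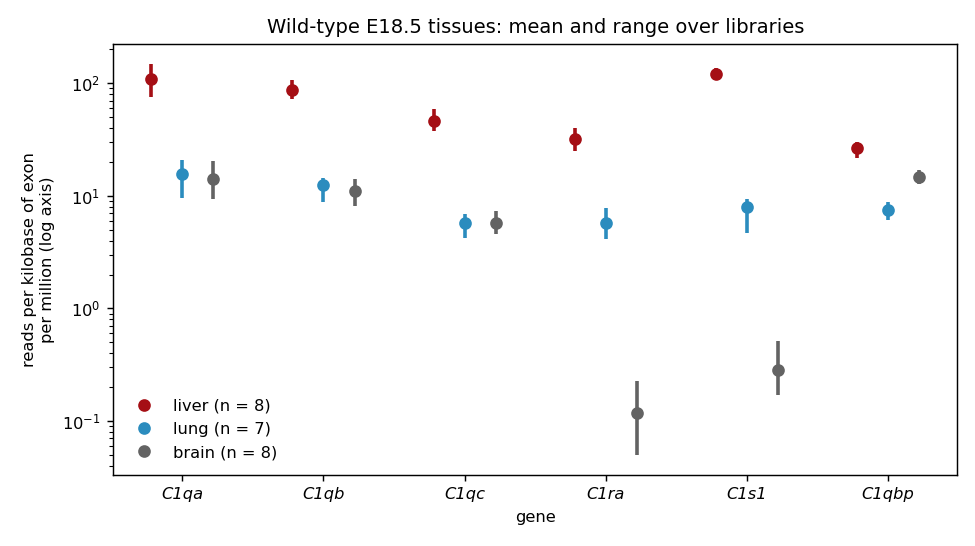
Level of each of the 6 genes in RPKM (log axis) in wild-type liver, lung and brain, where the point is the mean and the line spans the lowest to the highest library. The means of the chains sit near 5 to 16 RPKM in lung and brain and above 37 RPKM in liver, whereas C1ra and C1s1 fall below 1 RPKM in brain.

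The tissue contrasts were tested within each set of litters with edgeR's quasi-likelihood test and Benjamini-Hochberg adjustment over all genes, which is the test behind every adjusted p given here. Liver against lung, 6 of 6 members were higher in liver in both sets, where 73.7% (S226A litters) and 73.3% (Y130A litters) of all genes passed in either direction. The chains were higher by 2.69 to 3.13 on the log2 scale, C1ra by 2.33 and 2.58, C1s1 by 3.86 and 3.98, and C1qbp by 1.83 and 1.86. Liver against brain, 6 of 6 members were again higher in liver, against 82.5% and 83.3% of all genes that passed. The chains differed by 2.85 to 3.12, close to their difference from lung, but C1ra by 7.76 and 8.32 and C1s1 by 8.90 and 8.57 (log2).

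Lung against brain, 5 of 6 members passed in the S226A litters and 3 of 6 in the Y130A litters, where 78.7% and 76.9% of all genes did. C1ra was higher in lung by 5.43 and 5.74 and C1s1 by 5.04 and 4.60 (log2), and C1qbp was lower in lung by a log2 difference of -0.86 and -1.10. The chains were nearly level between these tissues. In the S226A litters, C1qa was higher in lung by 0.36 ± 0.14 (SE, edgeR adjusted p = 0.0224) and C1qb by 0.43 ± 0.16 (edgeR adjusted p = 0.0130), and C1qc differed by 0.21 (edgeR adjusted p = 0.146). With the embryo as a block, C1qc also passed in these litters (0.33, edgeR adjusted p = 0.0241). C1qa lost its call without lung replicate 1 or 3 or brain replicate 1 (0.23, 0.26 and 0.32), C1qb without lung replicate 1 (0.35), and C1qc gained one without lung replicate 4 (0.32). In the Y130A litters, none of the 3 chains passed (-0.15 to 0.09), and none reached an unadjusted p of 0.05 or passed by DESeq2.

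In Daxx S226A/S226A liver, all 3 C1q chains fell, by 4.54 to 9.57 times, whereas the proteases and C1qbp did not pass the test. The level of C1qa was 7.38, 12.5, 8.60 and 8.43 CPM in the S226A livers and 90.4, 77.8, 96.4 and 91.7 CPM in their wild-type littermates. Every S226A liver thus lay far under every wild-type liver. The log2 fold change of C1qa was -3.26 ± 0.15 (SE, n = 4 and 4, edgeR adjusted p = 6.83e-20).

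The level of C1qc was 11.9, 13.9, 8.54 and 11.1 CPM in S226A liver and 77.4, 72.7, 77.8 and 86.5 CPM in wild-type liver, which gave -2.79 ± 0.14 on the log2 scale (edgeR adjusted p = 6.00e-19). For C1qb, the S226A livers held 19.6, 25.5, 13.1 and 17.2 CPM and the wild-type livers 81.1, 78.9, 94.2 and 88.7 CPM, which gave -2.18 ± 0.16 (edgeR adjusted p = 1.16e-13). Neither gene showed any overlap between the groups, and the S226A liver with the most C1qa (replicate 2) also had the most C1qb and C1qc.

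For these calls, 3 of 6 members passed in S226A liver, where 11.7% of all 16892 genes passed, and all 3 were lower, as 5.54% of genes were. The same 3 members met the study's stringent criteria, an adjusted p below 0.01 with a log2 fold change of more than 1 in size and a standard error below 1, in the direction in which 0.847% of genes did. By fold change, C1qa, C1qc and C1qb ranked 370, 459 and 624 from the lowest of the 16892 genes. The fall of the chains held without any 1 of the 8 libraries, at -3.45 to -3.17 for C1qa, -2.90 to -2.67 for C1qc and -2.37 to -2.04 for C1qb (log2).

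**Figure D2:**
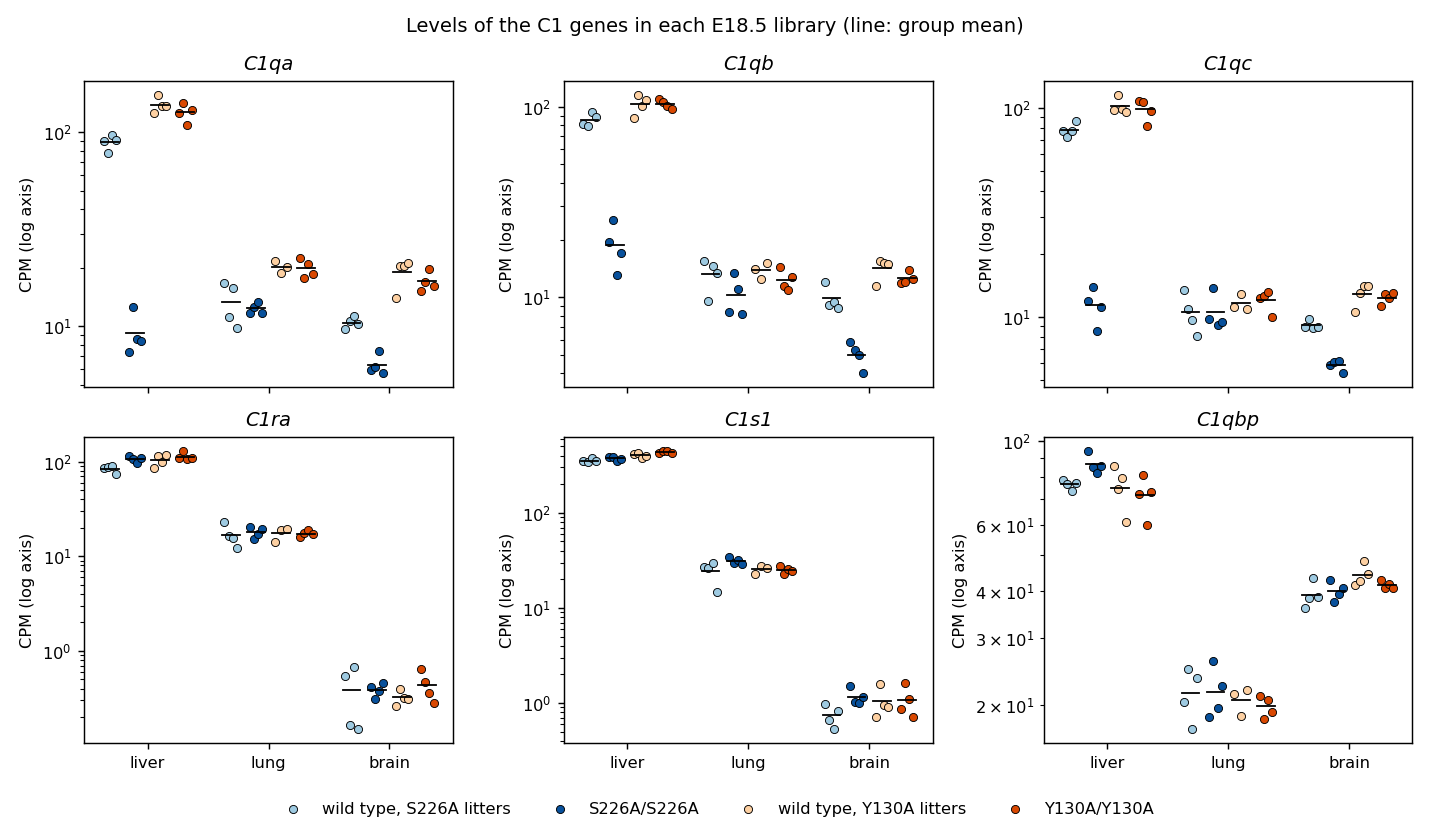
Level of each of the 6 genes in CPM (log axis) in every library (points) by tissue and genotype, with a line at the group mean. In liver, the 4 S226A libraries sit at 7.38 to 12.5 CPM for C1qa, below the 77.8 to 96.4 CPM of their wild-type littermates, whereas C1s1 sits at 350 to 389 CPM beside 341 to 376 CPM.

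The proteases, known from hepatocytes and mesenchymal cells, did not fall with the chains. The level of C1ra was 115, 106, 96.7 and 108 CPM in S226A liver and 84.9, 88.0, 90.8 and 74.2 CPM in wild-type liver, and these groups did not overlap. Its log2 fold change of 0.33 ± 0.15 did not pass (edgeR adjusted p = 0.164), but it did where only the 8 livers were fitted (0.35, edgeR adjusted p = 0.0211), and its exact permutation p of 0.0286 (two-sided, n = 4 and 4) is the smallest that this design allows. C1s1 stood at 389, 388, 350 and 369 CPM against 347, 341, 376 and 354 CPM, overlapping groups with a log2 fold change of 0.08 (edgeR adjusted p = 0.798).

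C1qbp, the mitochondrial protein, behaved like the proteases. Its level was 93.8, 85.5, 82.4 and 85.9 CPM in S226A liver and 78.9, 76.7, 73.7 and 77.4 CPM in wild-type liver. The groups did not overlap, but the log2 fold change of 0.18 ± 0.10 did not pass (edgeR adjusted p = 0.265, exact permutation p = 0.0286). In all, 5 of 6 members had groups that did not overlap in S226A liver, as did 11.9% of all genes tested. Of 12 other genes of the mitochondrial matrix, 0 passed in S226A liver by edgeR or DESeq2, and 1 had an unadjusted p below 0.05.

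**Figure D3:**
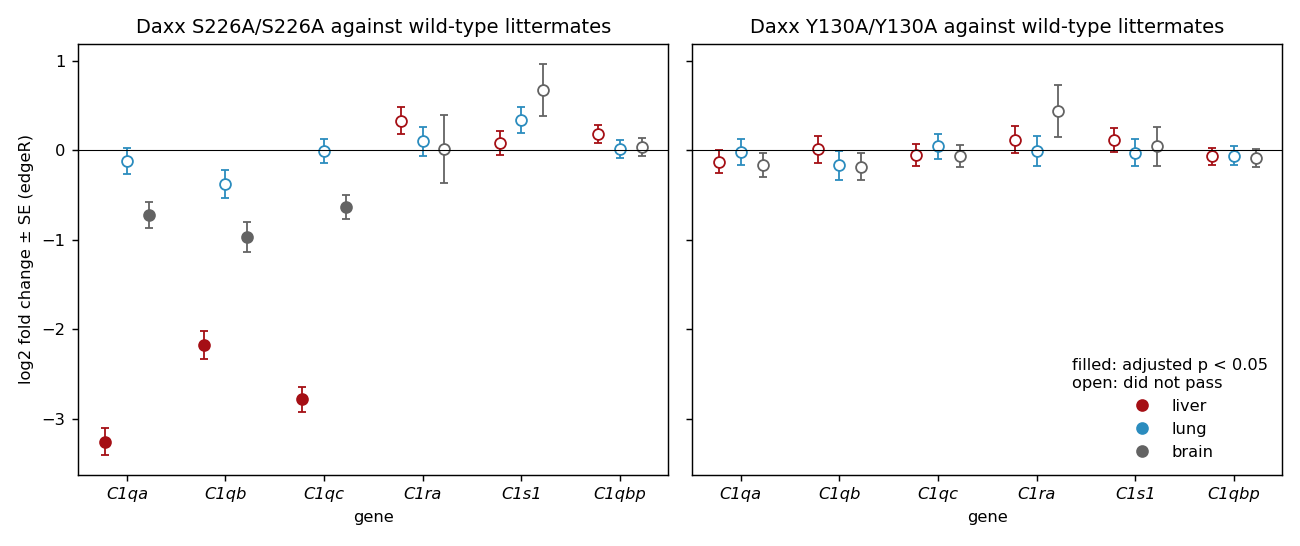
Log2 fold change with its standard error for each of the 6 genes in the 6 comparisons of a mutant with its wild-type littermates, filled where the edgeR adjusted p was below 0.05. The chains are filled and below 0 in S226A liver and S226A brain, and no other point is filled.

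The balance within the complex can be read inside each library, as the log2 ratio of RPKM values, which is given without a test. The mean of the proteases against the mean of the chains was 2.89 in S226A liver (2.49 to 3.13) and 0.05 in wild-type liver (-0.05 to 0.17). This ratio was also higher in S226A brain, at -4.19 (-4.47 to -3.92) against -5.48 (-5.87 to -5.08) in wild-type brain, where the proteases rest on few reads, and the groups overlapped in S226A lung and in all tissues of Daxx Y130A/Y130A. The chains did not fall by the same factor. The ratio of C1qa to C1qb was -0.95 in S226A liver (-1.34 to -0.54) and 0.12 in wild-type liver (0.04 to 0.22), and that of C1qb to C1qc was 1.54 against 0.95. Both ratios between chains separated the groups without overlap in liver. In lung and brain, and in all tissues of Daxx Y130A/Y130A, the ratios between chains overlapped between mutant and wild type.

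**Figure D4:**
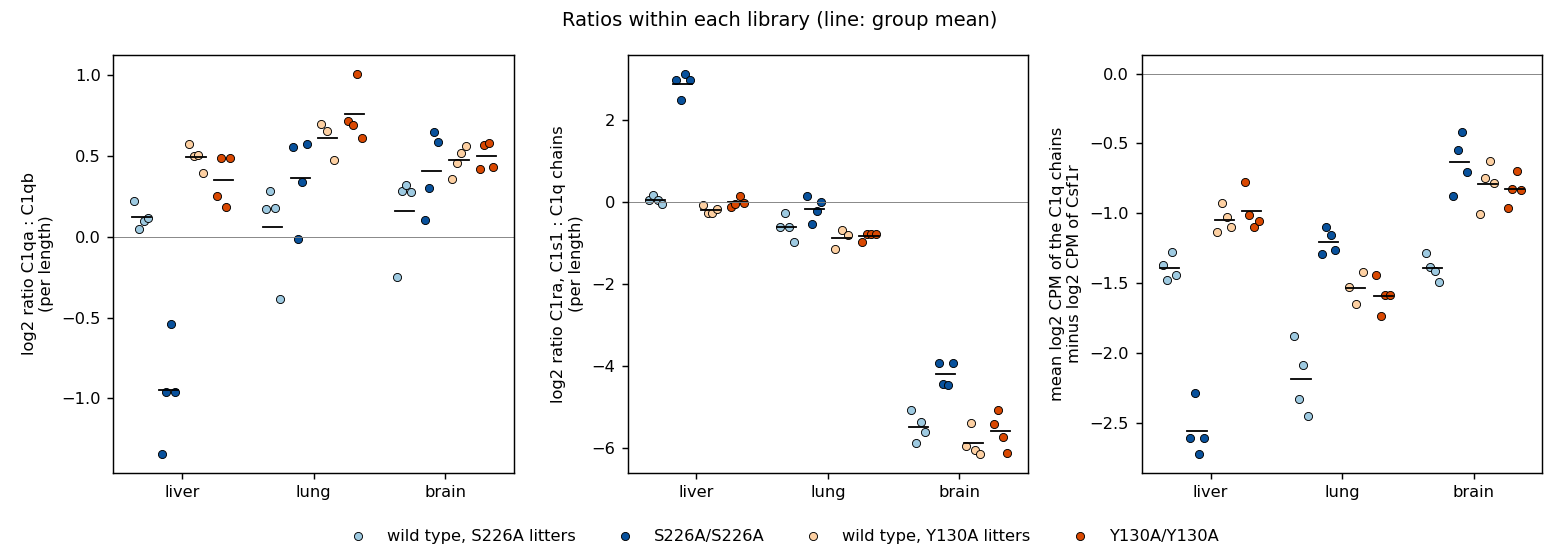
Values within each library (points) by tissue and genotype, with a line at the group mean, as log2 ratios of RPKM of C1qa to C1qb and of the proteases to the chains, and as the mean log2 CPM of the chains minus that of Csf1r. The S226A livers stand apart in the ratio of proteases to chains (2.49 to 3.13 against -0.05 to 0.17) and of C1qa to C1qb (-1.34 to -0.54 against 0.04 to 0.22). In the ratio of proteases to chains, S226A brain also lies above wild-type brain (-4.47 to -3.92 against -5.87 to -5.08).

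Markers of macrophages moved with the chains in S226A liver. All 8 genes listed for macrophages of any tissue were lower, with a median log2 fold change of -1.43, where the median over all genes was -0.011. They included Csf1r, the receptor for the growth factor CSF1 (-1.61, edgeR adjusted p = 6.83e-20), Fcgr1, a receptor for IgG (-1.71, edgeR adjusted p = 6.81e-06), and Cd163, a scavenger receptor for hemoglobin (-5.33, edgeR adjusted p = 3.61e-13). Their summed level was 234 to 280 CPM in S226A liver and 578 to 645 CPM in wild-type liver, and none was at 0. The part of macrophage content in the fall of the chains was not tested.

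Among 4 genes of Kupffer cells, the resident macrophages of the liver, 3 were lower, and their summed level was 86.4 to 161 CPM against 333 to 463 CPM. Clec4f, a lectin particular to these cells in mouse, had a log2 fold change of -8.42, Timd4, which binds phosphatidylserine on dying cells, -4.66, and Cd5l, a secreted macrophage protein, -1.65. Marco, a scavenger receptor, was at -0.39 and did not pass (edgeR adjusted p = 0.203). Within a library, the chains were also lower relative to Csf1r. The mean log2 CPM of the chains minus that of Csf1r was -2.56 in S226A liver and -1.39 in wild-type liver, with no overlap. This order depends on the reference gene, since Clec4f and Timd4 fell by more than any chain, and Cd5l and Marco by less.

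Other myeloid cells moved the opposite way. All 6 neutrophil genes were higher, among them Mpo, Elane and Ltf, which encode granule proteins (1.52, 1.49 and 1.42 log2), with a summed level of 5748 to 6299 CPM against 2037 to 2435 CPM. Of 3 monocyte genes, 2 were higher, Ly6c2 (1.46) and F13a1 (1.25). By DESeq2, 4 of the 6 neutrophil genes passed. None of the 6 hepatocyte genes, 5 mesenchymal genes or 4 erythroid genes passed by edgeR or DESeq2, or had an unadjusted p below 0.05. The summed level of the hepatocyte genes was still lower without overlap, at 150000 to 176800 CPM in S226A liver against 180000 to 184800 CPM, and its part in the results for C1ra and C1s1 was not tested. Of 4 endothelial genes, 2 were lower, Cdh5 (-0.46) and Pecam1 (-0.34), and their summed level was 266 to 330 CPM against 357 to 403 CPM. The sums of the mesenchymal and erythroid genes overlapped between the groups.

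**Figure D5:**
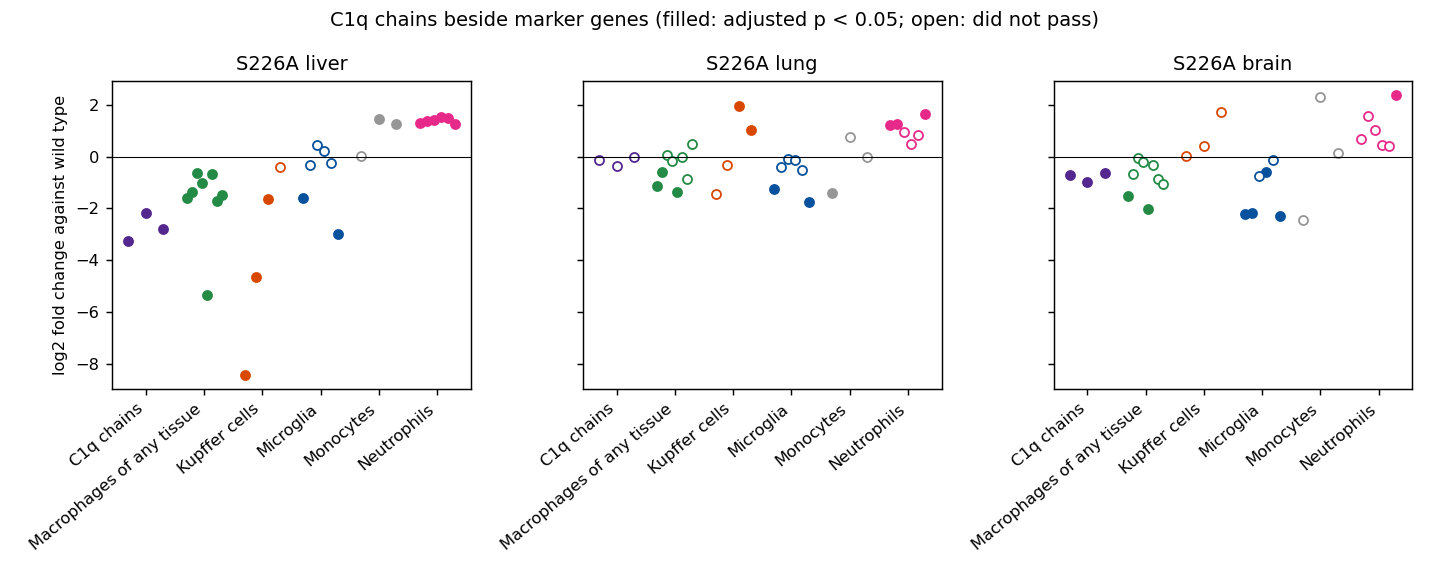
Log2 fold change against wild-type littermates of the C1q chains beside markers of macrophages, Kupffer cells, microglia, monocytes and neutrophils in the 3 tissues of Daxx S226A/S226A, where each point is 1 gene and is filled if it passed. Genes at 0 CPM in 1 of the groups are not drawn, which leaves out Marco in brain, although it passed there. In lung, Csf1r and Cd163 lie at -1.13 and -1.37 while the chains lie between -0.38 and -0.01, and in brain Csf1r at -1.52 lies below all 3 chains.

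The other complement genes were listed by role, and their counts are read against the 11.7% of all genes that passed in S226A liver. Of 10 genes for C2, C3, C4b and the terminal components, 1 passed, C6, which starts the assembly of the membrane attack complex with C5b (-3.05 ± 0.32, 1.56 CPM against 12.6 CPM, edgeR adjusted p = 2.35e-09). Of 8 genes of the lectin and alternative pathways, Fcna, a ficolin made by macrophages, was lower (-2.46), Fcnb, a ficolin of granulocyte precursors, was higher (1.65), and Cfp, properdin, was lower (-0.52). Of 10 regulators, Clu, clusterin, was higher (0.54, edgeR adjusted p = 0.00233).

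Of 13 complement receptors, 4 passed in S226A liver. Vsig4, the receptor for C3b on Kupffer cells, had 0 reads in all 4 S226A livers and 188 to 321 reads in the wild-type livers, at least 363-fold lower with a floor of 3 counts over the group. C5ar1, the receptor for C5a, was higher (1.21), as were Itgb2 (1.16) and Itgam (1.13), the chains of complement receptor CR3. C1rl, a relative of C1r expressed in liver, was at -0.16 and did not pass. The 4 nearest tested genes around the C1q cluster, Ephb2, Epha8, Kdm1a and Zbtb40, did not pass in any comparison of a mutant with its littermates by edgeR.

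In Daxx S226A/S226A lung, 0 of 6 members passed, where 1.88% of all genes did. At an unadjusted p below 0.05 there were 2, C1qb and C1s1, and by DESeq2 there were 0. The level of C1qb was 8.37, 13.4, 11.1 and 8.22 CPM in S226A lung and 15.6, 9.62, 14.6 and 13.5 CPM in wild-type lung, overlapping groups with a log2 fold change of -0.38 ± 0.16 (edgeR adjusted p = 0.215). Without wild-type replicate 2, the lowest of its group, C1qb passed (-0.51, edgeR adjusted p = 0.042).

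C1s1 stood at 33.9, 29.4, 31.5 and 28.7 CPM in S226A lung against 27.1, 26.4, 29.4 and 14.7 CPM, with wild-type replicate 4 well below the others. Its log2 fold change of 0.34 ± 0.14 did not pass (edgeR adjusted p = 0.215), but it did with the litter as a block (0.37, edgeR adjusted p = 0.0428). Leaving out 1 library gave 0.16 to 0.42, with no call, and the lowest of these values was the one without wild-type replicate 4. That library is embryo 9 of litter 2970. In its analysis of transposable elements, the paper treated a wild-type lung of the S226A comparison, written with a similar number, as a possible outlier. C1qa was at -0.12, C1qc at -0.01, C1ra at 0.10 and C1qbp at 0.01 (log2).

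The lung chains stayed near their wild-type level while several macrophage genes fell. Csf1r (-1.13, edgeR adjusted p = 5.16e-14), Cd163 (-1.37) and Adgre1, which encodes F4/80 (-0.58), were lower, 3 of 8 macrophage genes, whose summed level was 207 to 224 CPM against 249 to 285 CPM. Of 6 genes best known from microglia, Cx3cr1 (-1.25) and Fcrls (-1.76) were lower. In contrast, Marco (1.01), Cd5l (1.96) and Fcna (1.65) were higher. The mean log2 CPM of the chains minus that of Csf1r was -1.20 in S226A lung (-1.29 to -1.10) and -2.18 in wild-type lung (-2.45 to -1.88), the opposite order from liver. Here too the order depends on the reference gene. Cd163 also fell by more than the chains, whereas Cd68 (0.06) did not fall.

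Other genes that passed in S226A lung were receptors Itgam (1.52, higher) and C5ar2 and Itgb2 (-1.58 and -0.47, lower), the neutrophil genes S100a8 (1.65), Camp (1.24) and Ngp (1.21), and the monocyte gene Ccr2 (-1.39). Hspe1, a chaperone of the mitochondrial matrix, was higher by 0.64 (edgeR adjusted p = 0.0468), 1 of 12 such genes. None of the 10 genes of the C3 convertase and terminal pathway or the 10 regulators passed by edgeR or DESeq2, and 1 regulator had an unadjusted p below 0.05.

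In Daxx S226A/S226A brain, the chains fell again, by less than in liver. The level of C1qb was 5.81, 5.27, 4.98 and 4.01 CPM in S226A brain and 12.02, 9.11, 9.50 and 8.85 CPM in wild-type brain, which gave -0.97 ± 0.17 on the log2 scale (edgeR adjusted p = 0.000787). That of C1qa was 5.95, 6.20, 7.44 and 5.74 CPM against 9.67, 10.6, 11.3 and 10.2 CPM (-0.73 ± 0.15, edgeR adjusted p = 0.00995). For C1qc, the values were 5.84, 6.09, 6.10 and 5.37 CPM against 8.91, 9.74, 8.80 and 8.89 CPM (-0.63 ± 0.14, edgeR adjusted p = 0.0216). All S226A brains lay below all wild-type brains for each chain.

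These 3 calls compare with 0.243% of all genes that passed in S226A brain and 0.184% that were lower. The call of C1qb held without any 1 library, at -1.05 to -0.87 (log2). C1qa lost its call without wild-type replicate 3 or S226A replicate 1 or 4, and C1qc without any 1 library other than wild-type replicate 1, with adjusted p up to 0.121. No chain met the stringent criteria in brain. C1s1 held 43, 26, 24 and 28 reads in S226A brain and 23, 16, 15 and 22 reads in wild-type brain. The groups did not overlap (exact permutation p = 0.0286, n = 4 and 4), but the log2 fold change of 0.67 ± 0.30 did not pass (edgeR adjusted p = 1). With it, 4 of 6 members had groups that did not overlap, as did 2.48% of all genes. C1qbp was at 0.04. C1ra was at 0.02 ± 0.38 (SE), and leaving out 1 library moved it from -0.26 to 0.47, so its direction was not determined.

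Markers of microglia moved with the chains in brain. Of 6 microglial genes, 4 were lower, and their summed level was 36.0 to 39.4 CPM in S226A brain and 63.8 to 74.6 CPM in wild-type brain. Fcrls had a log2 fold change of -2.29, Cx3cr1, the fractalkine receptor, -2.21, and P2ry12, the ADP receptor of resting microglia, -2.16. Of the macrophage genes, Csf1r (-1.52) and Cd163 (-2.02) were lower, 2 of 8, and the summed level was 54.6 to 68.6 CPM against 85.3 to 92.0 CPM. The part of microglial content in the fall of the chains was not tested.

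Within a library, the chains were higher relative to Csf1r, as in lung. The mean log2 CPM of the chains minus that of Csf1r was -0.64 in S226A brain and -1.39 in wild-type brain, with no overlap. This order depends on the reference gene. Cd163 (-2.02) also fell by more than the chains, whereas Mrc1 (-0.22) and Cd68 (-0.05) fell by less. As in lung, Fcna was higher (1.71), as were S100a8 (2.37) and Marco, which had 0 reads in every wild-type brain and 9 to 38 reads in the S226A brains (at least 35.3-fold higher, with a floor of 3 counts over the group). None of the 13 receptors or 10 regulators passed by edgeR or DESeq2, and 3 receptors and 0 regulators had an unadjusted p below 0.05.

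The difference between tissues was tested directly. The S226A effect on C1qa was lower in liver than in lung by a log2 difference of -3.14 ± 0.20 (edgeR adjusted p = 4.38e-14), that on C1qc by -2.78 (edgeR adjusted p = 1.25e-13) and that on C1qb by -1.80 (edgeR adjusted p = 2.47e-07). Liver against brain, the differences were -2.53 for C1qa, -2.15 for C1qc and -1.21 for C1qb (edgeR adjusted p = 2.58e-11, 2.99e-10 and 0.000390). In each contrast, 3 of 6 members passed, where 6.90% and 3.71% of all genes did. Lung against brain, 0 of 6 passed by edgeR or by DESeq2, against 0.124% of genes, and at an unadjusted p below 0.05 there were 3, the chains, with differences of 0.59 to 0.63 (log2).

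In Daxx Y130A/Y130A embryos, no member passed in any tissue, by edgeR or by DESeq2 or at an unadjusted p below 0.05. Of all genes, 0.272% passed in liver, 0.0178% in lung and 0.00592% in brain. The level of C1qa was 126, 142, 109 and 130 CPM in Y130A liver and 156, 136, 136 and 125 CPM in wild-type liver, overlapping groups with a log2 fold change of -0.13 ± 0.13. C1qb was at 0.01 ± 0.15 and C1qc at -0.05 ± 0.12 in liver. In lung, the chains lay between -0.17 and 0.05 and in brain between -0.18 and -0.06.

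The proteases and C1qbp did not pass either, and C1ra in brain lay farthest from its littermates. C1ra was at 0.12, -0.01 and 0.44 in Y130A liver, lung and brain, the last of these on 14 to 33 reads with a standard error of 0.29, C1s1 at 0.12, -0.03 and 0.04, and C1qbp at -0.07, -0.06 and -0.09. None of 109 other listed genes of complement, mitochondria or cell types passed by edgeR in any tissue, and 3, 9 and 3 had an unadjusted p below 0.05 in liver, lung and brain. By DESeq2, 1, 1 and 0 passed. The summed level of the 8 macrophage genes was 617 to 693 CPM in Y130A liver and 651 to 728 CPM in wild-type liver.

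The S226A effect was set against the Y130A effect within each tissue. In liver, it was lower by a log2 difference of -3.13 ± 0.20 for C1qa, -2.74 ± 0.18 for C1qc and -2.19 ± 0.21 for C1qb (edgeR adjusted p = 6.52e-15, 3.18e-14 and 1.42e-09), 3 of 6 members, where 5.90% of all genes passed. In lung, 0 of 6 members passed, against 0.308% of genes, with none at an unadjusted p below 0.05 and none by DESeq2. In brain, 0 of 6 passed by edgeR or DESeq2, against 0.0829% of genes. The brain differences of the chains were -0.56 ± 0.20, -0.79 ± 0.22 and -0.57 ± 0.19 for C1qa, C1qb and C1qc, and all 3 had an unadjusted p below 0.05, so that the fall in S226A brain was not shown to differ from the Y130A brain.

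The wild-type groups of the 2 sets of litters differed for the chains as well. C1qa was lower in the wild types of the S226A litters than in those of the Y130A litters, by a log2 difference of -0.63 ± 0.13 in liver, -0.59 ± 0.15 in lung and -0.86 ± 0.14 in brain (edgeR adjusted p = 0.00170, 0.00332 and 0.000158). C1qc was lower in liver (-0.37, edgeR adjusted p = 0.0414) and brain (-0.50, edgeR adjusted p = 0.0158), and C1qb in brain (-0.53, edgeR adjusted p = 0.0305). That made 2 of 6 members in liver, 1 in lung and 3 in brain, where 13.1%, 20.1% and 5.98% of all genes passed. The share of members in lung is no larger than that of all genes. Where only the compared libraries were fitted, C1qa in lung did not pass (-0.59, edgeR adjusted p = 0.103). Leaving out 1 library ended several of these calls. C1qc lost its call in liver without any library other than replicate 4 of the S226A litters or replicate 3 of the Y130A litters. In brain, C1qb lost it without any library other than replicate 1 of either set, and C1qc without replicate 3 or 4 of either set.

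Csf1r differed by -0.07, 0.36 and -0.02 between these groups in liver, lung and brain, of which only the difference in lung passed (edgeR adjusted p = 0.000920). Of the 8 macrophage genes, 2 were lower in liver, 2 were higher in lung and 0 passed in brain by edgeR or DESeq2 or had an unadjusted p below 0.05. The libraries of the Y130A litters had a median total 2.19 times that of the S226A litters, and the litter set, the depth and the handling of the sets cannot be told apart. Each mutant was therefore compared only with its own wild-type littermates.

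Across the 12 groups, the chains correlated most with one another and the proteases with each other. The Pearson correlation of their mean log2(CPM + 1) was 0.96 to 0.988 between chains and 0.992 between C1ra and C1s1. It was 0.629 to 0.795 between a chain and a protease, 0.502 to 0.659 between a chain and C1qbp, and 0.377 and 0.486 between C1qbp and C1ra or C1s1. These values describe 12 group means that share tissue and libraries. Among 16886 genes, the 5 with the profile nearest to the mean of the chains, by the root mean square difference of centered group means, included Fcrla (0.391), Gbp8 (0.450), Cd72 (0.479) and Blk (0.484). By Pearson correlation, the nearest were mostly others, led by Vsig4 (0.972), Timd4 (0.971) and Clec4f (0.969), which are named above for Kupffer cells. By the root mean square difference again, the other profiles had these neighbors. Nearest to the proteases were Ass1 (0.159), Nipal1, Car2, Pon1 and Gnmt, and nearest to C1qbp were Fdxr (0.0968), Otub2, Ethe1, Ppif and Amot.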

How the data were processed

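RNA-seq libraries of liver, lung and brain from 47 samples were analysed. Per the study's methods and the labels, the authors trimmed reads with Trim Galore 0.6.5, checked them with FastQC 0.11.5, aligned them to GRCm38 with STAR 2.6.0b and deposited raw counts per gene, without normalization. The strand setting was not given in the sources used here. Totals were 15722147 to 26190403 counts in the S226A litters and 36351738 to 54885020 in the Y130A litters. Genes were matched to GENCODE by identifier for positions and exon lengths.

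Counts were tested with edgeR 4.0.16 (R 4.3.3), with TMM scaling, filterByExpr (minimum count 10) and the quasi-likelihood test over 12 groups in 1 model, adjusted by Benjamini-Hochberg over 16892 genes. A gene passed at an adjusted p below 0.05. The fits were tested on simulated data. CPM and RPKM were computed from the TMM-scaled totals. Exact permutation tests were two-sided. Titles give the litter and the embryo. Deviations of littermates from their group means correlated above 0.1 in 18 of 23 pairs (5 of 69 other pairs), and those of tissues of 1 embryo in 13 of 20 (2 of 68), so litter and embryo were used as blocks in alternatives. No replicates were alike within sampling noise (lowest chi-square per degree of freedom 4.17). Within a tissue, the labels give each sample as a separate embryo, but the tissues share embryos (17 embryos for 47 libraries). The p-values measure the spread between libraries of a group. The embryo was a block only in the wild-type tissue contrasts, not where the S226A effect was compared between tissues.

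Alternatives were RLE scaling, no filter, DESeq2 1.42.0, fits of the compared libraries only, leaving out each library, the study's stringent criteria, exact permutation, other gene lengths and no TMM scaling. The 6 genes and the gene lists were chosen with earlier results of these data known. Named genes were the members, their homologs, up to 3 genes per list and mutant comparison with the largest log2 fold change among those that passed, and the 5 nearest profiles. C1rl, Cfp, the endothelial genes, the genes beside the C1q cluster, Marco in S226A liver and Csf1r as the reference of the chains in each tissue follow from these lists or were named after their values were seen. Some genes of these lists are not reported here.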

Additional observations from a re-analysis of the deposited data

Results flagged for a closer look

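In 6 of 66 groups of 4 libraries, 1 library lay far from the other 3 by Dixon's criterion, which chance alone meets in about 1 in 20 groups. Replicate 1 of the wild-type brains of the Y130A litters had 14.1 CPM of C1qa, where the others had 20.3 to 21.2 CPM, and 11.5 CPM of C1qb, where the others had 15.04 to 15.5 CPM. C1qc stood at 13.7 CPM in replicate 2 of S226A lung (9.13 to 9.77 CPM in the others), at 9.74 CPM in replicate 2 of the wild-type brains of the S226A litters (8.80 to 8.91 CPM) and at 115.1 CPM in replicate 1 of the wild-type livers of the Y130A litters (95.6 to 98.8 CPM). C1ra stood at 128.8 CPM in replicate 2 of Y130A liver (106.8 to 109.0 CPM). The causes were not tested.

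Of 36 differences between effects, 9 passed edgeR's test, all of them for the C1q chains in S226A liver. The S226A effect minus the Y130A effect in liver was -3.13 for C1qa, -2.19 for C1qb and -2.74 for C1qc on the log2 scale. The S226A effect in liver minus that in lung was -3.14, -1.80 and -2.78, and minus that in brain -2.53, -1.21 and -2.15, in the same order of genes.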

How the results depend on the processing

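The fall of the 3 chains in S226A liver and its differences from Y130A liver, S226A lung and S226A brain kept their direction and passed under all alternatives run. RLE scaling or DESeq2 shifted the median of all genes by less than 0.1 (log2). The number of all genes that passed moved by more, for example from 317 to 647 in S226A lung and from 46 to 299 in Y130A liver with DESeq2.

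Where only the compared libraries were fitted, C1ra passed in S226A liver (0.35), C1qa did not in wild-type lung against brain of the S226A litters (0.36), and C1qb in that contrast of the Y130A litters was 0.00078. By exact permutation, C1ra (0.33) and C1qbp (0.18) in S226A liver and C1s1 in S226A brain (0.64) reached the smallest p, and C1qc in S226A lung (0.0022) and C1ra in Y130A lung (0.0048) changed sign. Between the wild types of both sets of litters, C1ra in brain changed sign (-0.014). There, C1qb in brain had an exact permutation p of 0.0571 and C1qa in lung one of 0.0857, where 0.0571 was the smallest possible in lung. RLE scaling and DESeq2 turned C1qbp in S226A lung (-0.011 and -0.012) and C1ra in Y130A lung (0.00445 and 0.00454). With the litter as a block, C1s1 passed in S226A lung (0.37, 1 member in place of 0), and C1qa (0.0068) and C1ra (0.0075) in Y130A lung changed sign. With the embryo as a block, C1qc passed in lung against brain of the S226A litters (0.33), and C1qb in the Y130A litters was 0.0053. These blocks changed no other call.

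Between the wild types of both sets of litters, C1qc in liver did not pass with RLE (-0.31), DESeq2 (-0.31), no filter (-0.35) or the compared libraries only (-0.31), which left 1 member, C1qb in brain did not with RLE (-0.46), and C1qa in lung did not with the compared libraries only (-0.59, 0 members). Under the stringent criteria, no member passed there (-0.63 and -0.37 in liver, -0.59 in lung, -0.86, -0.53 and -0.50 in brain), no chain passed in S226A brain (-0.73, -0.97 and -0.63, 0 members), and C1qbp did not pass in liver against brain (0.97 and 0.77) or lung against brain of the S226A litters (-0.86), nor C1qa (0.36) and C1qb (0.43), which left 2 members there.

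Leaving out 1 library moved log2 values over these ranges. In S226A lung they were -0.24 to 0.0094 for C1qa, -0.53 to -0.28 for C1qb, -0.16 to 0.13 for C1qc, -0.024 to 0.29 for C1ra and -0.093 to 0.093 for C1qbp, with 0 to 1 members passing. In S226A brain they were -0.81 to -0.68 for C1qa, -0.65 to -0.60 for C1qc and -0.26 to 0.47 for C1ra, with 1 to 3 members. In Y130A liver they were -0.060 to 0.068 for C1qb, -0.10 to 0.027 for C1qc and -0.16 to 0.0075 for C1qbp. In Y130A lung they were -0.085 to 0.036 for C1qa, -0.14 to 0.081 for C1ra and -0.10 to 0.035 for C1s1, and in Y130A brain -0.22 to 0.33 for C1s1. For the S226A minus the Y130A effect, they were -0.22 to 0.028 for C1qa, -0.21 to 0.086 for C1qc, -0.015 to 0.30 for C1ra and -0.042 to 0.15 for C1qbp in lung, and -0.70 to 0.029 for C1ra in brain.

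In wild-type lung against brain, the S226A litters gave 0.23 to 0.48 for C1qa, 0.35 to 0.56 for C1qb and 0.075 to 0.32 for C1qc, with 3 to 6 members, and the Y130A litters -0.032 to 0.14 for C1qa and -0.13 to 0.032 for C1qb. The S226A effect on C1ra ranged over -0.14 to 0.60 in liver minus brain and -0.37 to 0.36 in lung minus brain, and that on C1qbp over -0.13 to 0.056 in lung minus brain. Between wild types, C1qc in liver gave -0.42 to -0.31 and C1qbp -0.060 to 0.096, with 1 to 2 members. In lung, C1qb gave -0.15 to 0.065, C1ra -0.25 to 0.067, C1s1 -0.15 to 0.11 and C1qbp -0.024 to 0.16. In brain, C1qb gave -0.64 to -0.49, C1qc -0.59 to -0.46 and C1ra -0.20 to 0.53, with 1 to 3 members.

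Without TMM, wild-type liver levels were 82.0 RPKM for C1qa, 65.4 for C1qb, 35.1 for C1qc, 23.9 for C1ra, 91.2 for C1s1 and 20.4 for C1qbp. Lung levels were then 14.6 for C1qb, 6.67 for C1qc and 8.76 for C1qbp, and the brain level of C1qbp was 16.7. With the longest transcript, C1qc had 75.0, 9.13 and 9.13 RPKM in liver, lung and brain, and C1qbp 38.0, 10.6 and 20.8. With the longest coding transcript, chosen after seeing the data, C1qc had the same values and C1qbp 64.6, 18.0 and 35.4. Both lengths gave log2 ratios of -0.042 for proteases to chains in wild-type liver of the S226A litters, -0.097 and 0.39 for C1qa to C1qc in S226A and wild-type liver, and 0.85 and 0.27 for C1qb to C1qc. By Pearson correlation, 1, 1 and 0 of the 5 genes nearest to the chains, the proteases and C1qbp were the same. Where a value changed, the cause was not tested.

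Depth limited C1ra and C1s1 in brain, with 4 to 33 and 15 to 93 reads per library. With 4 embryos a group, an exact test cannot go below p = 0.0286.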
